A study of Mus musculus with 21 samples.

Results

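The 28 genes described here make and handle cholesterol in the liver: the regulators of the SREBP-2 system, the enzymes from acetyl-CoA to cholesterol, 2 sterol-binding proteins and the 2 enzymes that esterify cholesterol. They were taken by gene symbol from a list of 28, chosen with earlier results of these data known, out of the 55418 symbols counted. All 28 were found, and all 28 passed the filter on low counts that left 15677 genes for testing. No cell-surface receptor for cholesterol uptake is among them. RNA-seq read counts came from whole livers of 21 mice in 4 groups. Hepatocytes of KO mice lacked Mboat7, WT mice were wild type, and each genotype received chow or HFMCD, labelled as rich in fat, low in methionine and choline deficient. The treatment protocol writes this diet as HFCDD and names no methionine, so its methionine content rests on the sample labels. The groups were KO on HFMCD (4 mice), WT on HFMCD (4), KO on chow (7) and WT on chow (6). HFMCD was fed for 6 weeks from an age of 6 to 8 weeks and chow mice were 10 weeks old, and the animal numbers of the 2 diets fall in separate ranges, so diet cannot be told apart from age or animal series. Mboat7 encodes an acyltransferase that adds arachidonic acid to lysophosphatidylinositol. The driver of the hepatocyte deletion, the strain and the sex are not given in the sources used here, and the other cells of these livers still carry Mboat7.

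Cholesterol is built from acetyl-CoA through mevalonate, isoprenoid diphosphates, squalene and lanosterol, and most of these enzymes are transcribed under SREBP-2. When membranes of the endoplasmic reticulum are low in cholesterol, Scap carries SREBP-2 to the Golgi, where it is cut and its released part enters the nucleus; when cholesterol is ample, Insig proteins hold Scap back. The liver makes cholesterol, exports it in lipoproteins and bile, and stores part of it as cholesteryl ester.

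Sequences around the start sites were searched for short motifs. SREBP-2 binds sterol elements, often beside a CCAAT box, the site of the factor NF-Y. RefSeq promoters (GRCm38.p6, 250 bases before to 50 after a start) matched 23 of the 28 genes with 29 promoters, and Sqle, Fdft1, Fdps, Stard4 and Soat2 had none in that table. Searched on both strands, CCAAT was found in 21 of the 29 promoters (72.4%), against 37.4% of all 32851. A GC box (GGGCGG) was found in 24 (82.8%), against 35.7% of all, and an E-box (CACGTG) in 6 (20.7%), against 7.15%. The 24 promoters with a GC box belong to 21 genes. The 6 promoters with an E-box belong to 5 genes, because the promoters of Scap overlap and hold the same E-box. The promoters of Scap also share a GC box. The sterol element TCACNCCAC was found in 1 (3.45%), against 1.24%, and its shorter form TCACNCCA, which any match of the longer form also holds, in 3 (10.3%), against 4.36%. The 3 promoters with the shorter form were those of Srebf2, Hmgcs1 and Msmo1. They are shown first, followed by Mvk, Idi1 and Tm7sf2 as genes with large diet differences; showing Hmgcs1 and the last 3 was decided after their values were seen. Each line gives the 250 bases before the start on the gene's own strand, with matches to the sterol element and CCAAT in capitals.
Srebf2 (chr15:82147019-82147268, plus strand): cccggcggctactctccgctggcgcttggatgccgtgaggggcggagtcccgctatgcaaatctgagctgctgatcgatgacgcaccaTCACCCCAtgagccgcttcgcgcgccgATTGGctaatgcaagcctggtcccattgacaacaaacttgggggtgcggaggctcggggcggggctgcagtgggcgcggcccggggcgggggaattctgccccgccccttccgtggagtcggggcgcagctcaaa
Hmgcs1 (chr13:119690101-119690350, plus strand): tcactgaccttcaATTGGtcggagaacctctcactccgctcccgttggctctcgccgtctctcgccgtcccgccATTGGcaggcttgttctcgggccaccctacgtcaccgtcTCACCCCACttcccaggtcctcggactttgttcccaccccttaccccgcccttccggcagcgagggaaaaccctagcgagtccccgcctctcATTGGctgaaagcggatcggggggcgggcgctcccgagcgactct
Msmo1 (chr8:64733579-64733828, minus strand): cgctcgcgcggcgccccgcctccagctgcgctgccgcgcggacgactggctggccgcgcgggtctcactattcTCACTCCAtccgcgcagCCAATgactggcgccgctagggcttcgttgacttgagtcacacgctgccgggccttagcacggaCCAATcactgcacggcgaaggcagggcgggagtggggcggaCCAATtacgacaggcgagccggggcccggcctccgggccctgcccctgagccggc
Mvk (chr5:114444019-114444268, plus strand): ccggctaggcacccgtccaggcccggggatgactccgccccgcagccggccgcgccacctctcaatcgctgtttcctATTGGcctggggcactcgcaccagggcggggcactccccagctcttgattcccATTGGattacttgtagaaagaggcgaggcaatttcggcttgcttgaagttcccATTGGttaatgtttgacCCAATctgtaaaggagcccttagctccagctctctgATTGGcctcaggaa
Idi1 (chr13:8885356-8885605, plus strand): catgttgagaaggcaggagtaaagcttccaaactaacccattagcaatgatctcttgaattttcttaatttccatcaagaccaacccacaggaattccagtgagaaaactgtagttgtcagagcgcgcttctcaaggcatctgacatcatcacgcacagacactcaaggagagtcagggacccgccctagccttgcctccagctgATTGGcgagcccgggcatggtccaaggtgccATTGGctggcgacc
Tm7sf2 (chr19:6067851-6068100, minus strand): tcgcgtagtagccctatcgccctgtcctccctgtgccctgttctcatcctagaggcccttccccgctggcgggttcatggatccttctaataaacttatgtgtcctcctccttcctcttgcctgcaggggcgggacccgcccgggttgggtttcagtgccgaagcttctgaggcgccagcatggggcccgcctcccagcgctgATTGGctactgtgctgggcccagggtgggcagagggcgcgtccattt
The first bases of the sterol matches lay at -162 in Srebf2, -137 in Hmgcs1 and -177 in Msmo1, counted from the start site. Mvk held 5 CCAAT boxes in its window, Idi1 held 2 and Tm7sf2 held 1. A match is a run of letters and was not tested for binding. Sites spelled otherwise were not searched for, and the promoters compared were not matched for base composition.

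Libraries held 17502231 to 25822972 counts, of which the 28 genes took 0.164% to 0.266%. Levels are given in CPM, the usual depth-scaled unit, here on the summed counts of all genes tested with TMM scaling, and as CPM per kb of exon where genes are set beside each other. Mboat7 separated the genotypes without overlap on both diets, at 18.9 CPM ± 2.24 (SD, n = 4) in KO and 36.3 CPM ± 1.47 (SD, n = 4) in WT on HFMCD, and 21.3 CPM ± 1.77 (SD, n = 7) in KO and 36.2 CPM ± 2.72 (SD, n = 6) in WT on chow. The summed markers of hepatocytes ran from 80093 to 117886 CPM in all 21 libraries. Several libraries stood apart. WT HFMCD replicate 1 was the lowest library of its group in 24 of the 28 genes, where it was lowest in 27% of all genes tested, and KO HFMCD replicate 2 was lowest in 21 of 28, against 26.3% of all genes. WT chow replicate 6 was lowest in 13 of 28, against 18.8%. KO chow replicate 7 carried skeletal muscle transcripts (1179 CPM), and the mucosal transcript Dmbt1 was abundant in KO chow replicates 1 and 7 and WT chow replicates 3 and 5, so results are also given without them where they changed.

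**Figure D1:**
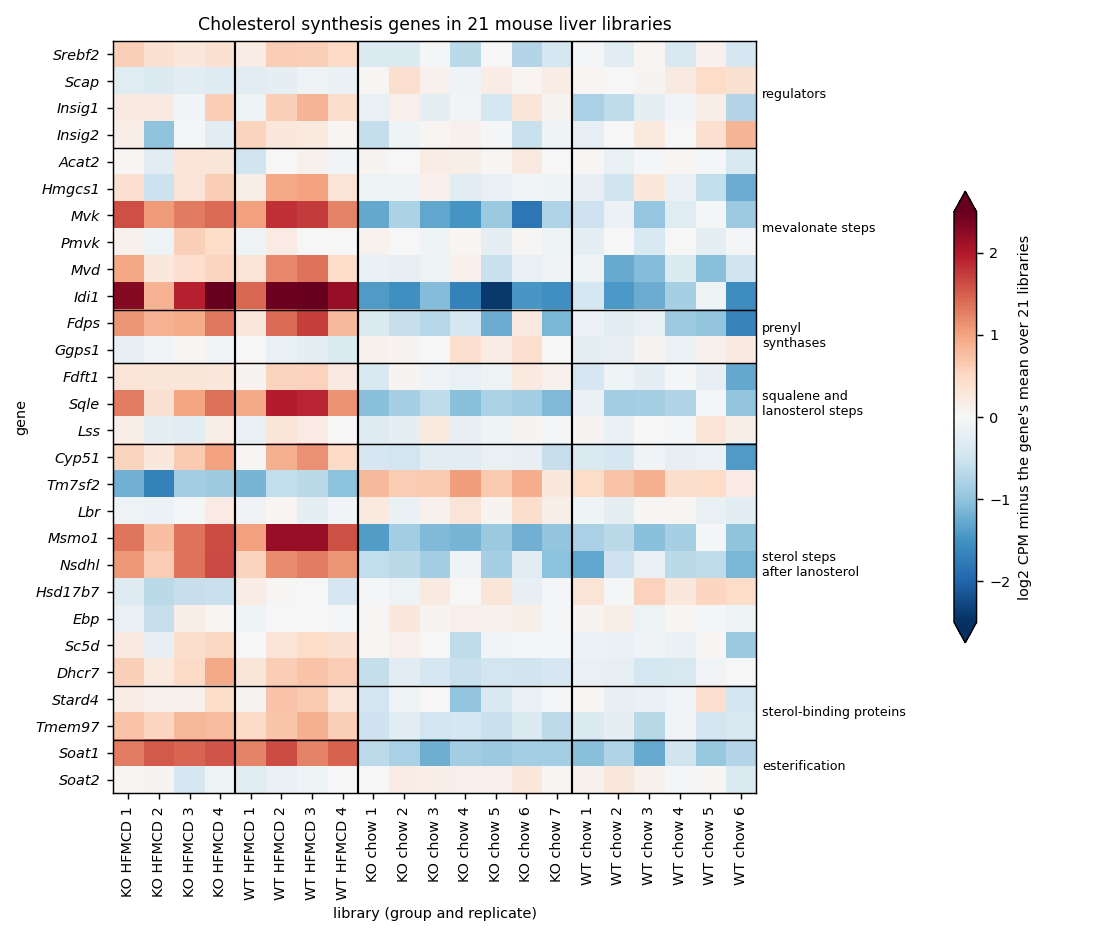
Level of each of the 28 genes (rows, grouped by role) in each of the 21 libraries (columns), as log2 CPM minus the gene's mean over all libraries, with red above and blue below the mean. Idi1, Mvk, Msmo1, Sqle, Nsdhl and Soat1 are red in all 8 HFMCD libraries and blue or pale in the 13 chow libraries, Tm7sf2 is the reverse, and WT HFMCD replicate 1 and KO HFMCD replicate 2 are paler than their neighbours in most of the red rows.

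The levels of the 28 genes spanned a wide range. Per kb of exon, Insig2 was the most abundant in each of the 4 groups, at 143 CPM per kb ± 44.7 (SD, n = 4) in KO HFMCD and 204 ± 31.0 (SD, n = 4) in WT HFMCD livers, and at 149 ± 27.5 (SD, n = 7) in KO chow and 199 ± 55.4 (SD, n = 6) in WT chow livers. Its lowest library lay above the highest library of the next gene, Ebp, in each group. Ebp, the sterol isomerase of the late pathway, averaged 61.7 and 65.1 CPM per kb in KO and WT HFMCD livers and 71.5 and 66.8 in KO and WT chow livers. At the other end, Fdps and Lss were the lowest of the 28 on HFMCD, with 0.700 and 1.31 CPM per kb in KO HFMCD and 0.746 and 1.42 in WT HFMCD livers, followed by Idi1 with 1.98 and 2.19. The length used is that of all annotated exons of a gene joined, 10787 bases for Lss. In CPM, Lss averaged 14.1 in KO HFMCD and 15.3 in WT HFMCD livers, above Idi1 at 6.94 and 7.69. On chow the lowest were Fdps and Idi1, with 0.231 and 0.155 CPM per kb in KO chow and 0.221 and 0.254 in WT chow livers. In most places of this order neighbouring genes overlapped in their libraries. Idi1 rested on 5 to 14 reads a library in KO chow and 11 to 29 in WT chow livers, and Fdps on 10 to 37 and 9 to 26.

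The diet comparison asks how the pathway differed between HFMCD and chow within each genotype. In KO livers 14 of the 28 genes were higher on HFMCD and 5 lower, and in WT livers 17 were higher and 3 lower (edgeR quasi-likelihood test, Benjamini-Hochberg adjustment over the whole table, threshold 0.05). The mevalonate enzymes Mvk and Idi1, the squalene oxidising enzyme Sqle, the demethylating enzymes Msmo1 and Nsdhl and the esterifying enzyme Soat1 were among the higher ones, by 3.38-fold to 12.6-fold. The C14 sterol reductase Tm7sf2 was lower, at 0.276 times its chow level in KO and 0.380 times in WT livers. The 13 genes called higher in both genotypes, 13 of the 14 in KO and 13 of the 17 in WT livers, were Srebf2, Mvk, Mvd, Idi1, Fdps, Sqle, Cyp51, Msmo1, Nsdhl, Dhcr7, Stard4, Tmem97 and Soat1. Scap, Tm7sf2 and Hsd17b7 were called lower in both, and no gene was called in opposite directions. Without KO HFMCD replicate 2 the counts in KO livers were 16 higher and 4 lower, with 18 of the calls kept, and without WT HFMCD replicate 1 those in WT livers were 17 higher and 3 lower, with all 20 kept.

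These counts stand against a diet difference that reached most of the transcriptome. In KO livers 69.7% of all genes tested were called, 33.7% higher and 36% lower, and of the 28 genes 67.9% were called, 50% higher and 17.9% lower. In WT livers 62.5% of all genes were called, 29% higher and 33.6% lower, and of the 28 genes 71.4%, 60.7% higher and 10.7% lower. The share called was therefore close to that of all genes in KO livers, and the split between higher and lower differed. Because the 28 genes were chosen with earlier results of these data known, their shares are not those of a list set beforehand. The median log2 fold change of the 28 genes was 0.36 in KO and 0.67 in WT livers, beside -0.02 and -0.05 for all genes.

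**Figure D2:**
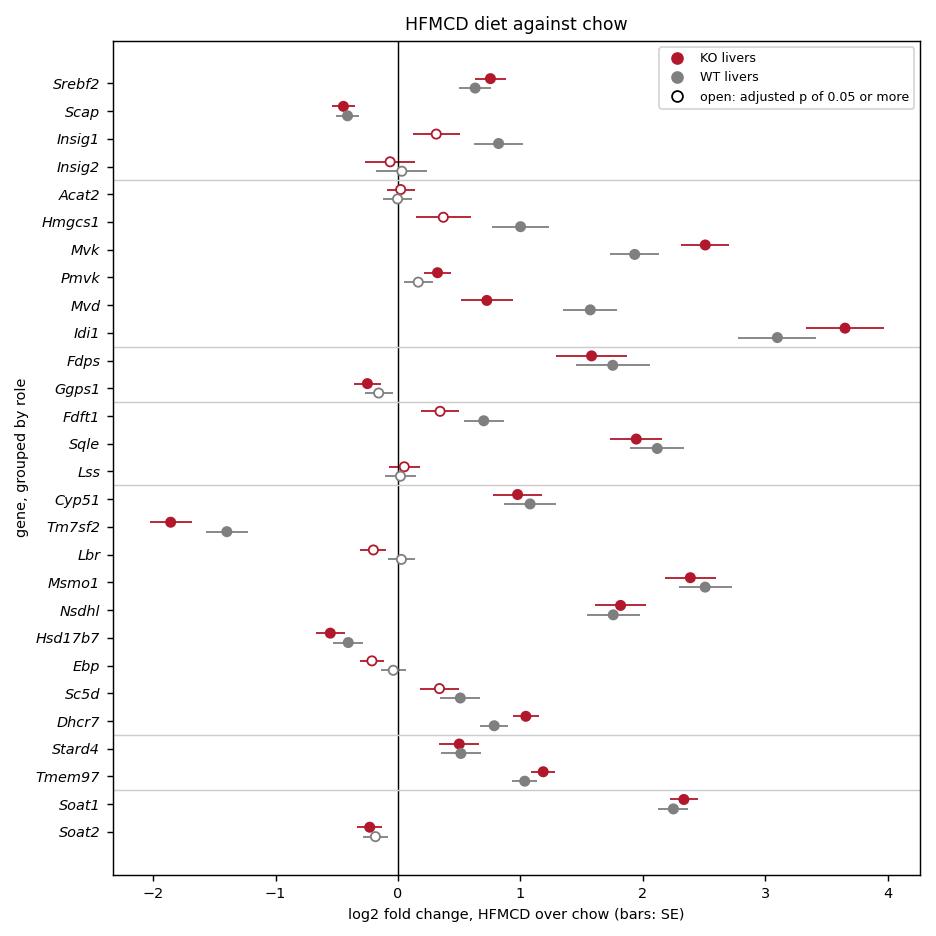
Log2 fold change of HFMCD over chow for each gene (rows, grouped by role), in KO livers (red) and WT livers (grey), with bars of 1 standard error; filled points have an edgeR adjusted p under 0.05. Idi1 lies furthest to the right, at 3.65 in KO and 3.10 in WT livers, and Tm7sf2 furthest to the left, at -1.86 and -1.40.

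Other cell types moved with diet as well. Summed Kupffer cell and macrophage markers were 2090 to 2874 CPM in the 8 HFMCD libraries and 237 to 605 CPM in the 13 chow libraries, and 8 of the 9 markers were called higher in KO and 9 of 9 in WT livers. Summed stellate cell and fibroblast markers were 1226 to 1836 CPM on HFMCD and 199 to 461 CPM on chow, with 7 of 8 called higher in each genotype. Summed cholangiocyte markers were 612 to 896 CPM in KO HFMCD and 217 to 246 CPM in WT HFMCD livers, and 31.3 to 113 CPM on chow. Summed hepatocyte markers were 100824 to 111827 CPM on HFMCD and 80093 to 117886 CPM on chow, ranges that overlapped. Of the single hepatocyte markers, 5 of 8 in KO and 4 of 8 in WT livers were called lower. In bulk liver, fewer cells of a type and less RNA per cell cannot be told apart, and the part of these cells in the results below was not tested.

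Among the regulators, Srebf2, which encodes SREBP-2, was higher on HFMCD in both genotypes, Scap, its escort protein, was lower, Insig1 was called in WT livers, and Insig2 was called in neither genotype. In the sentences on single libraries, 4 values are replicates 1 to 4 and 3 values are the lowest, median and highest library of a chow group. Srebf2 measured 61.9, 53.3, 49.0 and 53.0 CPM in KO HFMCD livers, against 24.5, 31.9 and 40.7 CPM in KO chow livers. It measured 46.4, 62.6, 61.8 and 57.5 CPM in WT HFMCD livers, against 30.5, 36.6 and 43.8 CPM in WT chow livers. Every HFMCD library lay above every chow library of its genotype. The log2 fold changes were 0.76 (SE 0.13, edgeR adjusted p = 1.81e-05) in KO and 0.63 (SE 0.13, adjusted p = 0.000279) in WT livers. Scap averaged 88.8 CPM ± 1.67 (SD, n = 4) in KO HFMCD and 121 ± 13.2 (SD, n = 7) in KO chow livers, a log2 fold change of -0.45 (adjusted p = 0.000149). In WT livers it averaged 96.4 CPM ± 4.30 (SD, n = 4) on HFMCD and 128 ± 17.1 (SD, n = 6) on chow, a log2 fold change of -0.41 (adjusted p = 0.00054). Exons of Scap lie over those of the gene 5830462I19Rik on the other strand for 985 bases, and without a stated strand setting such reads cannot be told apart.

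Insig1 is itself a target of SREBP-2, and Insig2 is the abundant Insig of the liver. Insig1 measured 68.6, 68.3, 55.8 and 89.9 CPM in KO HFMCD livers, against 43.0, 56.1 and 72.2 CPM in KO chow livers, ranges that overlapped. It measured 53.4, 89.2, 106 and 79.6 CPM in WT HFMCD livers, against 33.5, 44.0 and 65.3 CPM in WT chow livers, where replicate 1 on HFMCD lay within the chow range. Insig1 was called higher on HFMCD in WT (log2 fold change 0.82, SE 0.20, edgeR adjusted p = 0.00128) and had 0.31 (SE 0.19, adjusted p = 0.154) in KO livers. The difference between these changes was -0.51 (adjusted p = 0.572). Insig2 measured 652, 288, 565 and 481 CPM in KO HFMCD livers, against 381, 539 and 620 CPM in KO chow livers. It measured 853, 698, 689 and 593 CPM in WT HFMCD livers, against 505, 637 and 1038 CPM in WT chow livers. Both pairs of ranges overlapped, and the log2 fold changes were -0.06 (95% interval -0.46 to 0.33) in KO and 0.03 (-0.38 to 0.44) in WT livers.

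**Figure D3:**
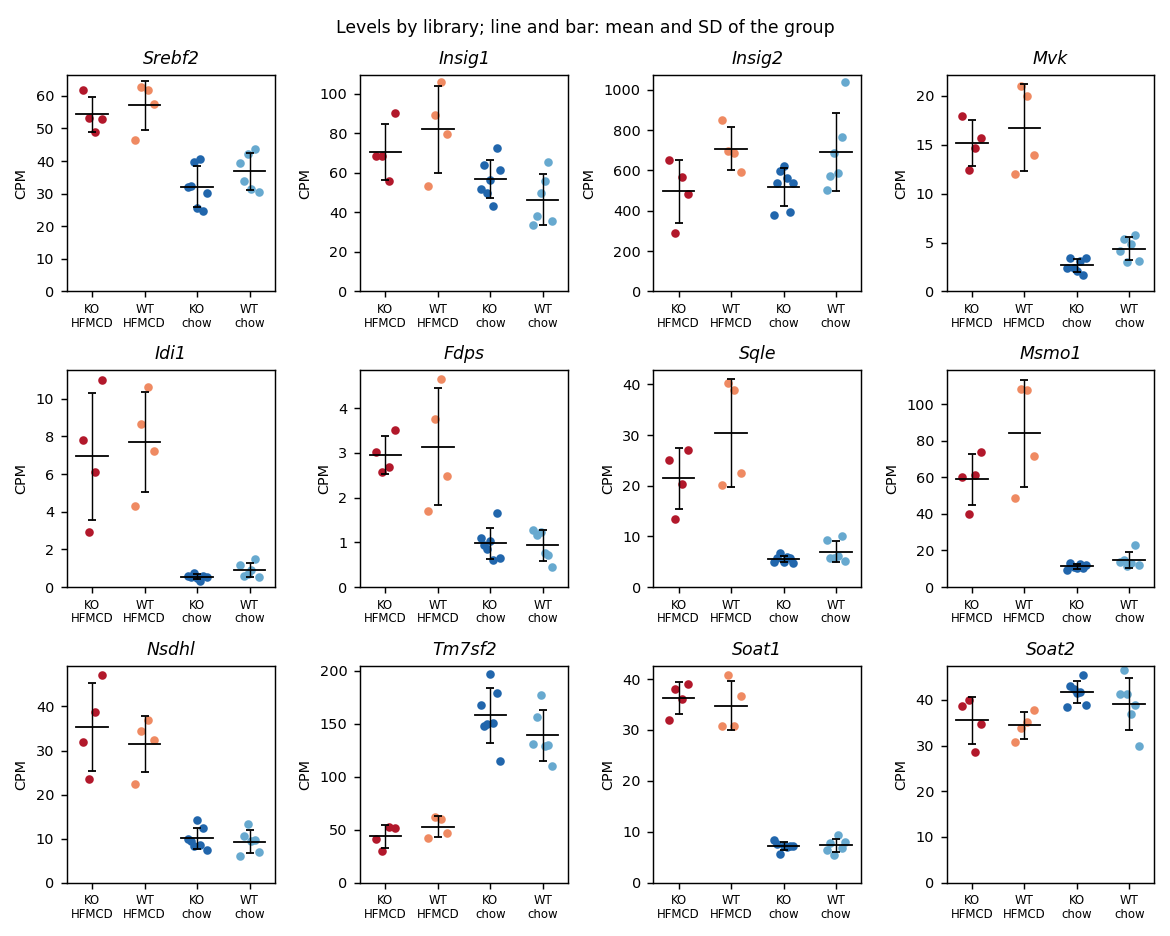
Levels in CPM (y axes, each from 0) of 12 of the genes in KO HFMCD, WT HFMCD, KO chow and WT chow livers; each point is a library, and the line and bar are the group's mean and SD. Mvk, Idi1, Sqle, Msmo1, Nsdhl and Soat1 on HFMCD lie above every chow library, Tm7sf2 lies below, and Insig2 and Soat2 overlap between diets.

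The mevalonate steps held the gene with the largest fold change of the 28. Of 6 genes, 4 were called higher in each genotype and none lower: Mvk, Mvd and Idi1 in both, with Pmvk in KO and Hmgcs1 in WT livers. Idi1, the isomerase that forms dimethylallyl diphosphate, measured 7.78, 2.90, 6.08 and 11.0 CPM in KO HFMCD livers, against 0.298, 0.547 and 0.749 CPM in KO chow livers. It measured 4.28, 8.64, 10.6 and 7.21 CPM in WT HFMCD livers, against 0.540, 0.784 and 1.47 CPM in WT chow livers. HFMCD and chow libraries did not overlap in either genotype, and the fold changes were 12.6 in KO (log2 3.65, SE 0.32, edgeR adjusted p = 6.01e-10) and 8.57 in WT livers (log2 3.10, SE 0.32, adjusted p = 1.56e-08). Idi1 shares 25.3% of its 50-base stretches with other genes, among them Gm13502, which had at most 0.0835 CPM, without TMM scaling, in any library, and Gm35570. Gm35570 averaged 0.638 CPM in KO HFMCD and 0.819 in KO chow livers and 0.797 in WT HFMCD and 1.84 in WT chow livers, against 0.543 and 0.889 CPM of Idi1 in KO and WT chow livers. It was called lower on HFMCD in WT livers (log2 fold change -1.21, adjusted p = 0.0408) and had -0.36 (adjusted p = 0.533) in KO livers, so reads of Idi1 and this copy are uncertain on chow.

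Mvk, mevalonate kinase, measured 18, 12.4, 14.6 and 15.7 CPM in KO HFMCD livers, against 1.70, 2.44 and 3.47 CPM in KO chow livers. It measured 12.0, 21.1, 20 and 13.9 CPM in WT HFMCD livers, against 3.02, 4.48 and 5.77 CPM in WT chow livers. The lowest HFMCD library lay above the highest chow library in both genotypes. Mvk was 5.70-fold higher in KO (log2 2.51, SE 0.20, edgeR adjusted p = 1.2e-10) and 3.82-fold higher in WT livers (log2 1.93, SE 0.20, adjusted p = 1.87e-08). Its promoter above is the one with 5 CCAAT boxes and no sterol element match.

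Mvd, the decarboxylase that follows Pmvk, averaged 6.66 CPM ± 1.48 (SD, n = 4) in KO HFMCD and 4.02 ± 0.552 (SD, n = 7) in KO chow livers, and 8.45 ± 2.92 (SD, n = 4) in WT HFMCD and 2.83 ± 0.906 (SD, n = 6) in WT chow livers. It was called in both, at a log2 fold change of 0.73 in KO and 1.57 in WT livers. Hmgcs1, the synthase that makes HMG-CoA and the gene with the longer sterol element, averaged 200.3 CPM ± 60.1 (SD, n = 4) in KO HFMCD and 155 ± 13.4 (SD, n = 7) in KO chow livers, a log2 fold change of 0.37 (edgeR adjusted p = 0.149). It averaged 264 CPM ± 76.1 (SD, n = 4) in WT HFMCD and 132 ± 43.2 (SD, n = 6) in WT chow livers, a log2 fold change of 1.0 (adjusted p = 0.000921). Without KO HFMCD replicate 2, its lowest library at 115 CPM, the change in KO livers was 0.57 (adjusted p = 0.0257), and in a fit of the compared groups alone it was 0.39 (adjusted p = 0.0431). Pmvk, phosphomevalonate kinase, had 0.32 (adjusted p = 0.0131) in KO and 0.17 (adjusted p = 0.22) in WT livers; the call in KO livers was lost without KO HFMCD replicate 3 or 4. Acat2, the thiolase of the first step and not the esterifying enzyme of similar name, had 0.02 (95% interval -0.20 to 0.24) in KO livers and an interval of -0.23 to 0.23 in WT livers. Acat2 shares 39.1% of its 50-base stretches with Acat3, which was more abundant at 160.2 CPM in KO HFMCD, 186 in WT HFMCD, 153 in KO chow and 144 in WT chow livers, so its counts are uncertain.

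Fdps and Ggps1 make the branch-point diphosphates, farnesyl and geranylgeranyl diphosphate. Fdps was higher on HFMCD in both genotypes, at 2.57 to 3.51 CPM in KO HFMCD and 0.595 to 1.65 CPM in KO chow livers, and at 1.69 to 4.64 CPM in WT HFMCD and 0.442 to 1.27 CPM in WT chow livers. Its log2 fold changes were 1.58 (SE 0.29, edgeR adjusted p = 3.82e-05) in KO and 1.76 (SE 0.30, adjusted p = 2.56e-05) in WT livers. Ggps1 was called lower in KO livers at -0.25 (adjusted p = 0.0464), a call that 19 of 30 alternative settings lost, and had -0.16 (adjusted p = 0.232) in WT livers. Fdps shares 26.2% of its 50-base stretches with other genes, mostly Gm43738, whose exons overlap those of Fdps on the same strand for 1124 bases. Gm43738 had no read. How reads over both genes were counted is not given, so the level of Fdps is uncertain.

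At the squalene and lanosterol steps, Sqle was higher on HFMCD in both genotypes, Fdft1 in WT livers, and Lss in neither. Sqle, squalene epoxidase and a rate-limiting enzyme of the pathway, measured 25.1, 13.4, 20.3 and 27.0 CPM in KO HFMCD livers, against 4.84, 5.67 and 6.63 CPM in KO chow livers. It measured 20.1, 40.3, 38.8 and 22.6 CPM in WT HFMCD livers, against 5.21, 5.97 and 9.98 CPM in WT chow livers. Diets did not overlap, and the log2 fold changes were 1.95 (SE 0.21, edgeR adjusted p = 5.33e-08) in KO and 2.12 (SE 0.22, adjusted p = 3.79e-08) in WT livers. Fdft1, squalene synthase, had 0.34 (SE 0.16, adjusted p = 0.0579) in KO livers, a value that passed the threshold in 8 of 30 alternative settings, and 0.70 (SE 0.16, adjusted p = 0.000822) in WT livers. Its exons lie over those of Ctsb on the other strand for 774 bases, and Ctsb was itself higher on HFMCD, at 1708 CPM in KO HFMCD and 656 in KO chow livers and at 1613 in WT HFMCD and 560.1 in WT chow livers, so the share of such reads in Fdft1 cannot be told apart. Lss, lanosterol synthase, had 0.05 and 0.02.

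After lanosterol, the 9 genes split. Cyp51, Msmo1, Nsdhl and Dhcr7 were higher on HFMCD in both genotypes and Sc5d in WT livers, Tm7sf2 and Hsd17b7 were lower in both, and Lbr and Ebp were called in neither. Msmo1, the C4 methyl oxidase, measured 60.4, 40.2, 61.4 and 73.9 CPM in KO HFMCD livers, against 9.10, 11.1 and 13.1 CPM in KO chow livers. It measured 48.7, 109, 108 and 71.9 CPM in WT HFMCD livers, against 11.6, 13.5 and 23.2 CPM in WT chow livers. Its libraries did not overlap between diets. The log2 fold changes were 2.39 (SE 0.21, edgeR adjusted p = 3.48e-09) in KO and 2.51 (SE 0.22, adjusted p = 5.21e-09) in WT livers. Its promoter, like that of Srebf2, holds the shorter sterol form without the longer.

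Nsdhl, the dehydrogenase that acts with Msmo1 at C4, measured 31.9, 23.6, 38.7 and 47.2 CPM in KO HFMCD livers, against 7.44, 9.53 and 14.3 CPM in KO chow livers. It measured 22.3, 34.4, 36.9 and 32.5 CPM in WT HFMCD livers, against 6.10, 9.58 and 13.2 CPM in WT chow livers. All HFMCD libraries were above all chow libraries of the genotype, with log2 fold changes of 1.82 (SE 0.21, edgeR adjusted p = 1.3e-07) in KO and 1.76 (SE 0.22, adjusted p = 6.03e-07) in WT livers. Hsd17b7, the keto reductase of the same C4 step, went the other way, with -0.55 (SE 0.12, adjusted p = 0.000305) in KO and -0.41 (SE 0.12, adjusted p = 0.00623) in WT livers.

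Tm7sf2 and Lbr both encode a C14 sterol reductase, Tm7sf2 in the endoplasmic reticulum and Lbr in the inner nuclear membrane. Tm7sf2 measured 41.2, 29.6, 52.5 and 51.1 CPM in KO HFMCD livers, against 114, 151 and 197 CPM in KO chow livers. It measured 42.4, 62.3, 59.7 and 46.5 CPM in WT HFMCD livers, against 110.3, 130.4 and 177 CPM in WT chow livers. The highest HFMCD library lay below the lowest chow library in both genotypes, with log2 fold changes of -1.86 (SE 0.17, edgeR adjusted p = 3.71e-09) in KO and -1.40 (SE 0.17, adjusted p = 3.73e-07) in WT livers. In the order of levels per kb, Tm7sf2 was the 14th gene in KO HFMCD and the 12th in WT HFMCD livers, against the 4th in both chow groups. Lbr had -0.20 (adjusted p = 0.0964) in KO and 0.03 (adjusted p = 0.834) in WT livers. Exons of Tm7sf2 overlap those of Vps51 on the same strand for 532 bases, and Vps51 had, without TMM scaling, 19.9 CPM in KO HFMCD, 21.1 in WT HFMCD, 20.8 in KO chow and 21.2 in WT chow livers.

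Dhcr7, the last reductase of this list, had log2 fold changes of 1.04 (SE 0.11, edgeR adjusted p = 1.01e-08) in KO and 0.79 (SE 0.11, adjusted p = 2.04e-06) in WT livers. Cyp51, the lanosterol demethylase, had 0.98 (SE 0.20, adjusted p = 0.000262) and 1.08 (SE 0.21, adjusted p = 0.000179). Sc5d, the C5 desaturase, had 0.34 (adjusted p = 0.0596; past the threshold in 9 of 30 alternative settings) in KO and 0.51 (adjusted p = 0.00924) in WT livers. Ebp had -0.21 (adjusted p = 0.0615) and -0.04 (adjusted p = 0.76). For the 4 genes called in WT and not in KO livers, Insig1, Hmgcs1, Fdft1 and Sc5d, the difference between the genotypes had adjusted p-values of 0.572, 0.537, 0.649 and 0.864, so that a difference in response was not shown.

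Both sterol-binding proteins were higher on HFMCD in both genotypes. Tmem97, a sterol-binding membrane protein of the endoplasmic reticulum also known as the sigma-2 receptor, averaged 73.8 CPM ± 6.38 (SD, n = 4) in KO HFMCD and 32.4 ± 2.83 (SD, n = 7) in KO chow livers, and 71.4 ± 8.59 (SD, n = 4) in WT HFMCD and 34.8 ± 5.18 (SD, n = 6) in WT chow livers. Its log2 fold changes were 1.19 (SE 0.10, edgeR adjusted p = 2.45e-10) in KO and 1.04 (SE 0.10, adjusted p = 7.17e-09) in WT livers. Stard4, a soluble sterol carrier, had 0.50 (SE 0.16, adjusted p = 0.00896) in KO and 0.51 (SE 0.17, adjusted p = 0.0105) in WT livers.

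Of the esterifying enzymes, Soat1 was higher on HFMCD and Soat2 was not. Soat2 is the form of hepatocytes and enterocytes, and Soat1 is the form of macrophages and many other cells. Soat1 measured 31.9, 38.0, 36.0 and 39.0 CPM in KO HFMCD livers, against 5.67, 7.25 and 8.30 CPM in KO chow livers. It measured 30.9, 40.9, 30.9 and 36.6 CPM in WT HFMCD livers, against 5.48, 7.34 and 9.30 CPM in WT chow livers. The gap between diets was wide in both genotypes, with log2 fold changes of 2.34 (SE 0.12, edgeR adjusted p = 4.7e-14) in KO and 2.25 (SE 0.12, adjusted p = 4.26e-13) in WT livers, the smallest p-values of the 28 genes in each. Soat2 measured 38.8, 40.0, 28.6 and 34.7 CPM in KO HFMCD livers, against 38.4, 41.9 and 45.5 CPM in KO chow livers. It measured 30.8, 33.8, 35.2 and 37.9 CPM in WT HFMCD livers, against 29.8, 40.0 and 46.6 CPM in WT chow livers. These ranges overlapped, and the log2 fold changes were -0.23 (SE 0.10, adjusted p = 0.0451), a call that 16 of 30 alternative settings lost, in KO and -0.18 (SE 0.10, adjusted p = 0.125) in WT livers. The summed macrophage markers given above were higher in the same livers as Soat1. Log2 fold changes of the 9 markers ran from 0.04 to 9.45 in KO and from 0.60 to 9.74 in WT livers. Cd68, a lysosomal protein of macrophages picked from them after it was seen, averaged 112 CPM in KO HFMCD and 8.70 in KO chow livers. It averaged 102 CPM in WT HFMCD and 8.90 in WT chow livers. The part of macrophages in the levels of Soat1 was not tested.

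Ratios within a library set related genes beside each other without the scaling between libraries. Soat1 over Soat2, Insig1 over Insig2 and Lbr over Tm7sf2, each in CPM per kb, were compared by two-sided exact permutation tests, 12 in all. The pairs were chosen after their values were seen. The p-values and their adjustment do not cover that choice. Soat1 over Soat2 was 0.186 to 0.285 in KO HFMCD and 0.0301 to 0.0488 in KO chow livers, a difference of 2.58 in mean log2 ratio (exact p = 0.00303, adjusted over the 12 tests p = 0.0143). It was 0.198 to 0.273 in WT HFMCD and 0.0300 to 0.0603 in WT chow livers, a difference of 2.44 (exact p = 0.00476, adjusted p = 0.0143). Lbr over Tm7sf2 was 0.269 to 0.445 in KO HFMCD and 0.0879 to 0.141 in KO chow livers, a difference of 1.68, and 0.204 to 0.321 in WT HFMCD and 0.0778 to 0.117 in WT chow livers, a difference of 1.43, with the same p-values. Both p-values are the smallest these group sizes can give. Insig1 over Insig2 on chow was 0.0857 to 0.207 in KO and 0.0385 to 0.107 in WT livers, a difference of 0.72 (exact p = 0.0128, adjusted p = 0.0308), with overlap. Leaving out single libraries gave differences of 0.52 to 0.82 with exact p-values of 0.00758 to 0.0366. The exact p was 0.0541 without KO chow replicates 1 and 7 and 0.0635 without all chow libraries rich in Dmbt1. Neither Insig1 nor Insig2 was called between KO and WT livers on chow (edgeR adjusted p = 0.392 and 0.221). Of the other 7 tests, the lowest adjusted p was 0.133.

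**Figure D4:**
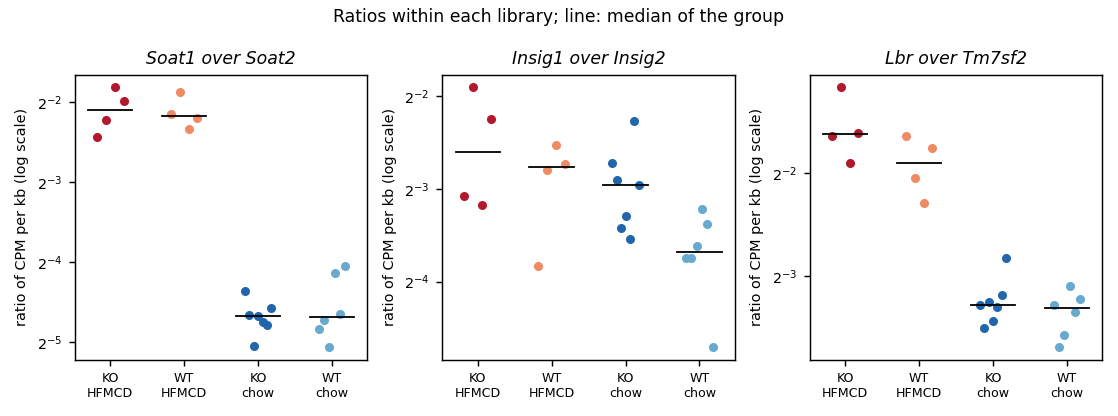
Ratio of the levels per kb of 2 related genes within each library (points, log axis) in KO HFMCD, WT HFMCD, KO chow and WT chow livers, with the group's median as a line. Soat1 over Soat2 and Lbr over Tm7sf2 are higher in every HFMCD library than in every chow library, and Insig1 over Insig2 overlaps between the diets of each genotype and between the genotypes on each diet.

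The comparison of KO with WT asks whether loss of Mboat7 in hepatocytes altered the pathway on either diet. On HFMCD no gene of the 28 was called, where 0.319% of all genes tested were. That share, 50 of 15677 genes, depended on the fit. It was 296 of 14424 in a fit of the HFMCD groups alone and 1 of 15969 without WT HFMCD replicate 2. Of the 28 genes, 4 (14.3%) had an unadjusted p under 0.05, beside 9.96% of all genes: Insig2, Sqle, Msmo1 and Hsd17b7. Log2 fold changes were positive in 9 genes and negative in 19, with a median of -0.08, and ran from -0.51 to 0.26. The lowest edgeR adjusted p was 0.132, for Hsd17b7. It measured 46.2, 36.2, 38.4 and 39.3 CPM in KO HFMCD livers, against 65.2, 58.8, 58.0 and 43.0 CPM in WT HFMCD livers, a log2 fold change of -0.49 (95% interval -0.75 to -0.23), where WT replicate 4 lay within the KO range. DESeq2 called this gene (adjusted p = 0.0394) and none of the other 27. For Srebf2 the interval was -0.36 to 0.22 around -0.07, for Idi1 it was -0.77 to 0.47 around -0.15 and for Msmo1 the fold change was -0.51 (adjusted p = 0.46). Cholangiocyte markers were higher in KO than in WT livers on HFMCD (6 of 8 called), with the sums given above, and their part in these values was not tested.

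**Figure D5:**
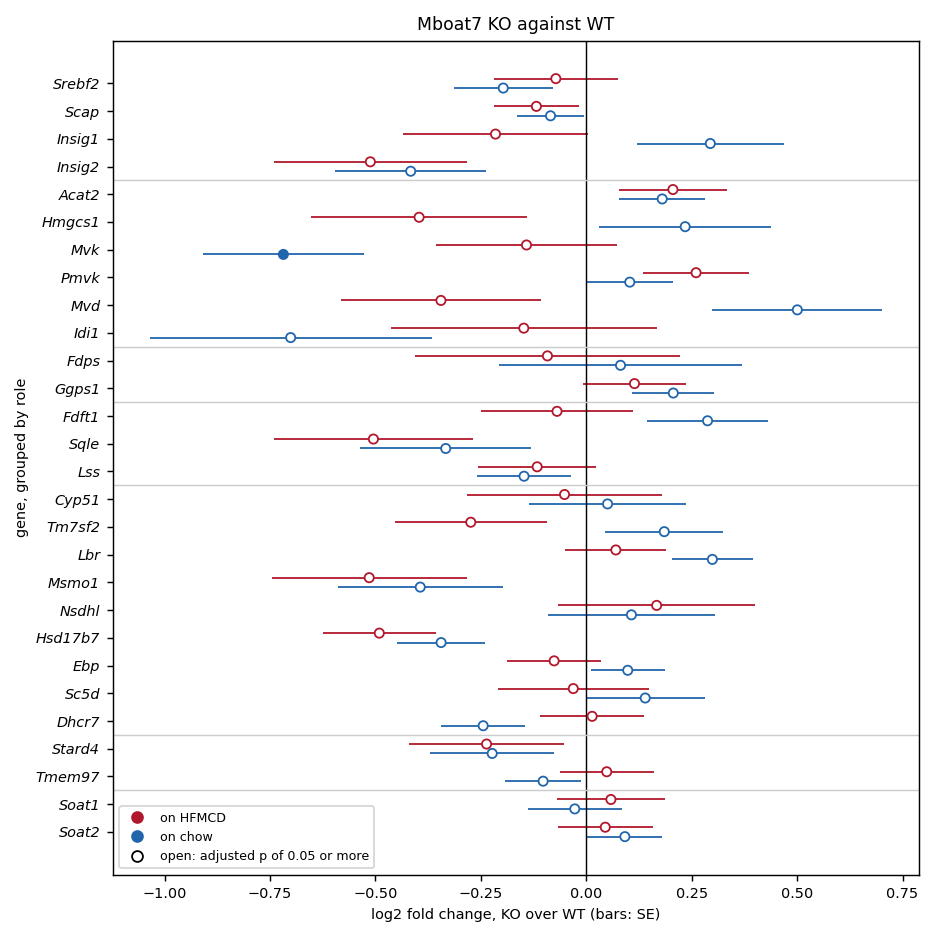
Log2 fold change of KO over WT for each gene (rows, grouped by role), on HFMCD (red) and on chow (blue), with bars of 1 standard error; the filled point has an edgeR adjusted p under 0.05. Mvk on chow, at -0.72, is the single filled point, and the others lie between -0.70 and 0.50.

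On chow, Mvk was called lower in KO livers and the other 27 genes were not called. The share called was 3.57% of the 28, where 2.17% of all genes tested were called. The count over all genes, 340 of 15677, depended on the fit. It was 2 of 14147 in a fit of the chow groups alone and 49 of 15644 without WT chow replicate 5. Mvk measured 1.70 to 3.47 CPM in KO chow livers with a median of 2.44, against 3.02 to 5.77 CPM in WT chow livers with a median of 4.48, and the ranges overlapped. The counts behind these levels were 38 to 76 reads in KO and 54 to 114 in WT libraries. Its log2 fold change was -0.72 (SE 0.19, edgeR adjusted p = 0.0467), which is 0.608 times the WT level. The fold change kept its sign in all 30 alternative settings (-0.80 to -0.62), and its adjusted p was 0.0141 to 0.189 and above the threshold in 20 of them. Among fits without a single library the call held without KO HFMCD replicate 2, KO chow replicate 2, 5 or 7, WT HFMCD replicate 1 or WT chow replicate 3, and it was lost without any of the other 15 libraries and without the libraries rich in Dmbt1. On HFMCD the change of Mvk was -0.14 (adjusted p = 0.901), and the difference between the diets was 0.58 (adjusted p = 0.504).

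Counting Mvk, 8 of the 28 genes (28.6%) had an unadjusted p under 0.05 on chow, beside 17.9% of all genes, and none of the other 7 passed the adjusted threshold. Hsd17b7 averaged 58.7 CPM ± 7.60 (SD, n = 7) in KO and 74.5 ± 10.9 (SD, n = 6) in WT chow livers, with a log2 change of -0.34 (SE 0.10, edgeR adjusted p = 0.0823), in the same direction as on HFMCD. Lbr averaged 17.8 CPM ± 2.34 (SD, n = 7) in KO and 14.5 ± 1.48 (SD, n = 6) in WT chow livers, 0.30 (SE 0.10, adjusted p = 0.0986). Leaving out single libraries made Hsd17b7 pass the threshold in 2 settings and Lbr in 1. Insig2 had -0.42 (adjusted p = 0.221) on chow and -0.51 (adjusted p = 0.456) on HFMCD. Mvd had 0.50, Ggps1 0.21, Dhcr7 -0.24 and Idi1 -0.70, with adjusted p-values of 0.184, 0.267, 0.189 and 0.271. Srebf2 had -0.20 (95% interval -0.43 to 0.03) and Soat1 -0.03 (-0.25 to 0.19).

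Whether the KO effect itself differed between diets was tested as a contrast of contrasts. It was called for no gene of the 28 and for 0% of all genes tested by edgeR, and 1 of the 28 (3.57%) and 1581 of all genes (10.1%) had an unadjusted p under 0.05. DESeq2 called 97 of all genes and limma-voom 10, and neither called any of the 28. The gene of the 28 under that p was Mvd, whose change was -0.34 on HFMCD and 0.50 on chow, a difference of -0.85 (SE 0.31, edgeR adjusted p = 0.352). Mvd measured 8.78, 5.40, 5.97 and 6.49 CPM in KO HFMCD and 5.73, 10.4, 11.5 and 6.20 CPM in WT HFMCD livers, and 3.04, 4.00 and 4.90 CPM in KO chow and 1.87, 2.69 and 4.10 CPM in WT chow livers. KO and WT ranges overlapped on both diets.

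Genes around the pathway that are not among the 28 were counted from 4 lists, beside the 69.7% of all genes called between diets in KO livers and the 62.5% in WT livers. Of 14 genes of SREBP processing and sterol sensing, 5 were higher and 6 lower on HFMCD in KO livers, and 3 higher and 7 lower in WT livers, which is 78.6% and 71.4% called. Paqr3, which anchors Scap at the Golgi, had log2 fold changes of -1.44 in KO and -1.02 in WT livers, and the ubiquitin-conjugating enzyme Ube2g2 had -0.70 and -0.58. Srebf1, the sister gene of Srebf2 that drives fatty acid synthesis, averaged 98.2 CPM in KO HFMCD and 35.1 in KO chow livers and 61.3 in WT HFMCD and 26.3 in WT chow livers, log2 fold changes of 1.48 and 1.22. On chow, the ubiquitin ligase Rnf145 was higher in KO livers (0.43, edgeR adjusted p = 0.00339) and Ubxn8 lower (-0.32, adjusted p = 0.0237). For genes of the 4 lists, calls between KO and WT livers on chow were not checked under the alternative settings. A fit of the chow groups alone called 2 of 14147 genes, so these calls are uncertain. Rnf145 was also lower on HFMCD than on chow, by log2 fold changes of -0.63 in KO and -0.44 in WT livers.

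Of 17 genes of sterol uptake and transport within the cell, 7 were higher and 4 lower on HFMCD in KO livers, and 5 higher and 4 lower in WT livers, which is 64.7% and 52.9% called. Npc2, the soluble cholesterol carrier of lysosomes, had log2 fold changes of 1.0 in KO and 1.14 in WT livers, and Lipa, the lysosomal lipase that frees cholesterol from its esters, 0.81 and 0.65. The sterol transfer protein genes Gramd1a (-0.88 and -0.54) and Gramd1c (-0.83 and -0.87) were lower. Stard5 was lower in KO than in WT livers on chow (-0.43, edgeR adjusted p = 0.0169). Of 12 genes of sterol efflux and LXR targets, 4 were higher and 4 lower in KO livers and 5 higher and 2 lower in WT livers, which is 66.7% and 58.3% called. This list shares Srebf1 with the list of SREBP processing and Mylip with that of uptake and transport. The sterol exporter Abcg1 averaged 42.6 CPM in KO HFMCD and 8.32 in KO chow livers and 37.6 in WT HFMCD and 7.96 in WT chow livers, log2 fold changes of 2.35 and 2.24, and the acyltransferase Lpcat3 had 0.84 and 0.66. The phospholipid transfer protein gene Pltp was higher in KO than in WT livers on chow (0.78, adjusted p = 0.00339).

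Farnesyl diphosphate also feeds protein prenylation, ubiquinone and dolichol. Of 13 genes of these branches, 7 were higher and 6 lower on HFMCD in KO livers, and 2 higher and 5 lower in WT livers, which is 100% and 53.8% called. Rabggtb, a subunit of the enzyme that prenylates Rab proteins, had log2 fold changes of -1.46 in KO and -1.35 in WT livers, the methyltransferase Icmt -0.96 and -0.69, and the protease Zmpste24 0.85 and 0.61. No gene of the 4 lists was called between KO and WT livers on HFMCD, and none for the difference between diets.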

How the data were processed

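The authors deposited raw read counts per gene symbol, 1 file per library, with no normalization recorded. The genome build GRCm38 and the tools featureCounts 1.6.1, STAR 2.6.1d and CASAVA 2.17 are named, per the submitters' processing notes; the annotation release, the strand setting and any read filter are not given in the sources used here. Livers were perfused with PBS and total RNA was extracted with a column kit, per the labels' protocols.

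Counts were fitted on the whole table with edgeR 4.0.16 in R 4.3.3: filterByExpr over the 4 groups with a minimum count of 10, TMM scaling, and 1 robust quasi-likelihood model with 4 group means over all 21 libraries and no covariate. The 5 contrasts had two-sided F tests, with Benjamini-Hochberg adjustment over the 15677 genes tested and a threshold of 0.05. The standard error of a log2 fold change is its size over the root of F. The script was tested on simulated counts. A check of 48 pairs of libraries within groups found 0 identical pairs. The labels do not say more about how replicates were raised, so p-values measure the spread between these mice. Reads were not reduced to molecules.

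Gene positions, exon lengths and shared 50-base stretches came from GENCODE M21 on GRCm38, which held all 55418 symbols. The members, the lists of other genes and the markers were chosen with earlier results of these data known. Values by library were given for members called between KO and WT, the 6 called members with the largest absolute log2 fold change in each diet contrast, and Srebf2, Insig1, Insig2, Soat1 and Soat2; of each other list the called genes with the 3 smallest p-values were used. Single values outside this rule (Hsd17b7, Mvd, Ctsb, Acat3, Gm35570, Vps51, Cd68) were chosen after they were seen. Alternatives were scaling by RLE or by the upper quartile, fitting with no filter on low counts, at least 1 CPM in 4 libraries, DESeq2 1.42.0, limma-voom (3.58.1) with quality weights, the compared groups alone, and leaving out libraries.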

Additional observations from a re-analysis of the deposited data

Results flagged for a closer look

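Of 112 combinations of gene and group, 4 held a library whose gap to its nearest neighbour was large for the range of the group by Dixon's criterion, and chance flags about 1 in 20. Cyp51 measured 16.8 CPM in WT chow replicate 6, where the next lowest library of that group had 33.6 CPM. Msmo1 measured 23.2 CPM in WT chow replicate 5, where the next highest had 15 CPM. Sc5d measured 145 CPM in KO chow replicate 4, where the next lowest had 214 CPM. Sc5d also measured 118 CPM in WT chow replicate 6, where the next lowest had 201 CPM. WT chow replicate 6 holds 2 of these 4 values and is the lowest library of its group in 13 of the 28 genes. All 4 lie in chow groups, and their cause was not tested.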

How the results depend on the processing

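Under 30 alternatives to the reported fit, the number of the 28 genes called between HFMCD and chow was 17 to 22 in KO livers and 20 or 21 in WT livers, and 17 to 20 and 20 when single libraries were left out. All 20 calls in WT livers and 16 of the 19 in KO livers were kept in every alternative; the exceptions were Ggps1, lost in 19, Soat2, lost in 16, and Pmvk, lost in 2 (without KO HFMCD replicate 3 or 4). Without a single library, Ggps1 kept its call in KO livers without KO HFMCD replicate 3, KO chow replicate 1, 3 or 7, WT HFMCD replicate 1 or WT chow replicate 1 or 3. Soat2 lost it without KO HFMCD replicate 3 or 4, KO chow replicate 2, 3, 4, 5 or 6, WT HFMCD replicate 2 or 3, or WT chow replicate 2, 4 or 5. Genes that gained a call in KO livers were Sc5d (in 9 alternatives), Fdft1 (8), Ebp (7, lower), Hmgcs1 (2) and Lbr (1, lower), and limma-voom added Soat2 in WT livers. Between KO and WT livers on HFMCD, DESeq2 called 1 gene, Hsd17b7, and every other alternative called 0, leave-one-out fits included. On chow, where 1 gene (Mvk) was called, the count was 0 with upper-quartile scaling, with limma-voom, in a fit of the compared groups alone, without KO chow replicates 1 and 7, and without all 4 chow libraries rich in Dmbt1. It was 0 to 2 when single libraries were left out, with Lbr added without KO chow replicate 2 and Hsd17b7 without KO chow replicate 5 or WT chow replicate 2. The cause was not tested, except that the last fits use fewer libraries. For the difference between diets the count was 0 throughout. No value reversed past the threshold. Other scalings moved the median of all genes by less than 0.1 on the log2 scale. No paired analysis was possible because animal numbers are unique to each mouse and link no libraries across groups. Depth limits Idi1 and Fdps, which rest on as few as 5 and 9 reads in chow libraries.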
